A study of Mus musculus with 4 samples.

Results

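Described here are the nuclear genes of respiratory complexes III and IV, cytochrome c and ATP synthase in sorted mouse regulatory T cells. The members were all protein-coding genes whose symbol begins with Uqcr, with Cox and a digit, or with Atp5, plus Cyc1 and Cycs. This rule gave 54 of the 52636 gene IDs in the count table, and it used names only, with no measured value. The RNA of 4 libraries was sequenced, 2 from Vav1R63W mice and 2 from mice with Vav1R63W and a T cell deletion of Themis1, as labelled. Every library came from C57BL/6 mice 7 weeks old and from cells sorted as CD4+CD62L+CD25bright, so both groups carry the Vav1R63W allele and no library with unaltered Vav1 was analysed here. The titles number the replicates 2 and 3 in each group. The labels name neither the Cre driver of the Themis1 deletion nor the animals behind each replicate, so each p-value speaks only of the variation among these 4 libraries, part or all of which may be technical.

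The targeted gene went against one label. Themis had 283 and 97 reads in Vav1R63W replicates 2 and 3, 685 reads in the library labelled Themis1-deleted, replicate 2, and 0 in the library labelled Themis1-deleted, replicate 3. The labels do not say which part of the gene is deleted. Directions below are therefore those of the labels, and values without each library are given where they change the picture. Vav1 itself had 206 and 253 CPM, reads per 1000000 gene reads of the library, in Vav1R63W and 160 and 73.5 CPM in the pair labelled Themis1-deleted. Reads assigned to genes ranged from 13963670 to 15953194 per library. The 8 regulatory T cell markers had reads in every library, and their summed level was 5138 and 4893 CPM in Vav1R63W and 5281 and 4168 CPM in the pair labelled Themis1-deleted. Among them Foxp3 lay between 636 and 1014 CPM with overlap. Ctla4 was lower without overlap (173 and 160 CPM against 112 and 93.0 CPM) and Ikzf2 higher without overlap (150 and 117 CPM against 183 and 162 CPM), and neither passed in edgeR. Of the markers of other cells, Lyz2, Csf1r, Itgam and Adgre1 (myeloid), Ncr1 and Klrb1c (NK), Ms4a1 (B cell) and Cd8a had no read in any library. The B cell genes Cd79a and Cd79b together reached 37.9 to 68.9 CPM, and Cd8b1 19.3 to 38.5 CPM. The part of any of these in the values below was not tested.

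Complex III takes electrons from ubiquinol and passes them to cytochrome c, a small haem protein of the intermembrane space. Complex IV passes them on to oxygen. Both pump protons, and ATP synthase uses the return of those protons through its rotating c ring to drive ATP formation in its F1 head, which a peripheral stalk holds still. Most subunits are encoded in the nucleus and a few core ones in mitochondrial DNA, and regulatory T cells are known for a strong reliance on oxidative phosphorylation. Transcription of many of these genes is known to be driven by NRF1 and by GABPA, an ETS factor.

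The stretches before the start of 5 members are shown because they hold, or lack, the motifs of these regulators: Cox6a1 and Atp5h for NRF1, Atp5j, at the second of its 2 RefSeq starts, for the ETS motif beside its head-to-head neighbour Gabpa, and Cox5b and Uqcrfs1 as the members with the smallest edgeR p among those with a positive and a negative fold change. They are RefSeq promoter sequence of GRCm38.p6, 5′ to 3′ on the gene's strand, trimmed to the longest run within 200 bases of the start that no annotated UTR covers. Capitals mark motif matches.
Cox6a1, chr5:115348982-115349158, minus strand: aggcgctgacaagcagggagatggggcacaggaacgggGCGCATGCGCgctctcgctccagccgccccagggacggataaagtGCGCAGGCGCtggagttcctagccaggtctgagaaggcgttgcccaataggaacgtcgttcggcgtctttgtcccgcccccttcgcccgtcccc
Atp5h, chr11:115419963-115420119, minus strand: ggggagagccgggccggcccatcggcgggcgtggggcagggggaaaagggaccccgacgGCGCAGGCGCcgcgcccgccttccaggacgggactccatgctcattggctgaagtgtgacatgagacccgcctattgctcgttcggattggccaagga
Atp5j, chr16:84835024-84835123, minus strand: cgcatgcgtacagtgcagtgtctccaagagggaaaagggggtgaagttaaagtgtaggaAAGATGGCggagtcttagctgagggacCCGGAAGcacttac
Cox5b, chr1:36691287-36691448, plus strand: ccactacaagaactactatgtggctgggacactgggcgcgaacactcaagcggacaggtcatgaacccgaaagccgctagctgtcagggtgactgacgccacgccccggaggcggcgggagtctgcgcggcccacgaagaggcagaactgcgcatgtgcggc
Uqcrfs1, chr13:30545363-30545516, minus strand: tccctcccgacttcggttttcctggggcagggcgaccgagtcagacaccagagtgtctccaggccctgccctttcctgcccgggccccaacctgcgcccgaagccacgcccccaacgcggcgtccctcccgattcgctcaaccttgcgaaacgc

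The Cox6a1 stretch held the NRF1 motif (GCGCA, any base, then GCGC) at 2 places and the Atp5h stretch held it once. Both also had an ETS match nearer the start, in bases that an annotated UTR covers and that are not printed. The Atp5j stretch, which lies inside the annotated gene, held the YY1 motif AANATGGC and the ETS motif CCGGAAG, while the 200 bases before its outer start held no motif searched. As to the rest, the Cox5b and Uqcrfs1 stretches held none of the motifs searched. Of the 54 members, 41 had a RefSeq promoter, and each was searched on both strands over the 250 bases before its start. The ETS motif was found in 11 of the 41 (26.8%), against 10.2% of 17492 protein-coding genes searched the same way. The NRF1 motif was found in 5 (12.2%, against 5.84%), in Atp5c1, Atp5g2, Atp5h, Atp5k and Cox6a1. For YY1 the share was 4.88% against 4.29%, for the SP1 motif GGGGCGGGG 14.6% against 15.8%, and for TATAAA 7.32% against 13.7%. These are matches of letters, described without a test. A base could count towards more than 1 motif.

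Another set is shown because it marks where 3 genes of one mature protein differ in their RNA. Atp5g1, Atp5g2 and Atp5g3 encode subunit c, whose mature protein is known to be identical from all 3, and their last 75 coding bases before the stop codon, from GENCODE M21, differ at 20 positions, in capitals.
Atp5g1: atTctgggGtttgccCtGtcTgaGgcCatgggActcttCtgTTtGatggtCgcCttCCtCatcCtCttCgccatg
Atp5g2: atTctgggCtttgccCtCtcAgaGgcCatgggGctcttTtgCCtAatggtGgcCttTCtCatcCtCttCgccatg
Atp5g3: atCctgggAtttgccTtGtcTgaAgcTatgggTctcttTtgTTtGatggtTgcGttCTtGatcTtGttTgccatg
Atp5g1 and Atp5g2 differ at 10 of the 75 bases, 9 of them at the last base of a codon, and Atp5g2 and Atp5g3 at 19, 15 of them at the last base of a codon. The longest run shared by any pair was 18 bases.

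The members took a near-constant share of the RNA. They held 1.68% and 1.80% of gene reads in Vav1R63W, and 1.75% and 1.80% in the pair labelled Themis1-deleted, replicate 2 before replicate 3. Reads were found for 48 members, and 46 had enough for the test. In edgeR's quasi-likelihood test over all tested genes, adjusted by Benjamini-Hochberg, 0 of the 46 passed an adjusted p of 0.05, against a background of 0% (0 of 10216 genes). At an unadjusted p under 0.05 edgeR called 0 members, against 4.98% of all genes, 509 in number. DESeq2 also called 0 members, while it called 206 of 10972 genes (1.88%). The authors' deposited table gives 45 members an adjusted p, the lowest being 0.351 for Atp5j, and has 0 of them under 0.05, against 1.56% of its genes. By its unadjusted p, 3 members are under 0.05, Atp5j, Cox5b and Atp5c1. No member therefore passed an adjusted threshold in these tests, and what follows describes levels and their spread. Since these are bulk samples, fewer cells of a type and less RNA per cell cannot be told apart.

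**Figure D1:**
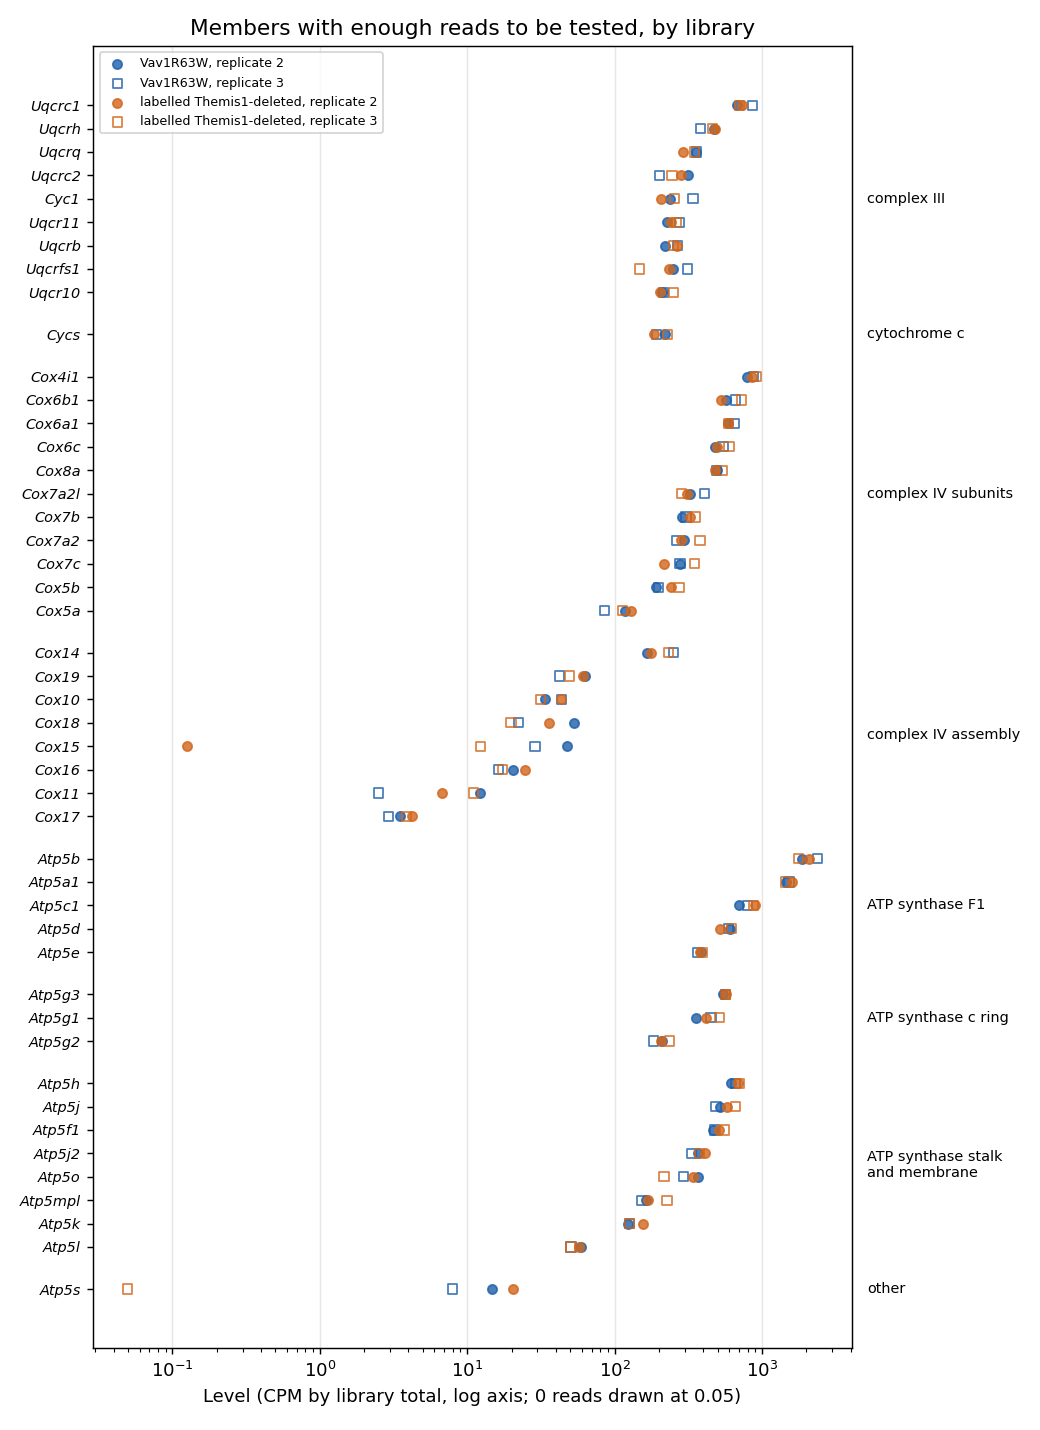
Level of each of the 46 tested members in the 4 libraries (horizontal axis, CPM by library total, log scale), by role group and mean level; filled circles are replicate 2, open squares replicate 3, blue Vav1R63W, orange the libraries labelled Themis1-deleted. Structural subunits lie at 50.4 CPM or more in every library, and assembly factors other than Cox14 at 62.7 CPM or less. Among members with reads in every library, Cox15 has the widest spread. Atp5s had 0 reads in the library labelled Themis1-deleted, replicate 3, which is drawn at a fixed low value.

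Complex III has 9 nuclear members here, and all were measured. The core protein gene Uqcrc1 was at 672 and 864 CPM in Vav1R63W and at 729 and 703 CPM in the pair labelled Themis1-deleted, replicate 2 being given before replicate 3 throughout. The hinge protein gene Uqcrh was at 469 and 383 CPM against 479 and 462 CPM. These groups overlapped. The small subunit gene Uqcrq was at 356 and 359 CPM in Vav1R63W and at 291 and 348 CPM in the other group, so both of the latter lay lower, though replicate 3 by little.

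Uqcrfs1 (GRCm38 chr13:30540308-30545362, minus strand) encodes the Rieske iron-sulphur protein, which takes the first electron from ubiquinol. It had 248 and 311 CPM in Vav1R63W and 234 and 147 CPM in the pair labelled Themis1-deleted. The lowest value was that of replicate 3, while replicate 2 sat just under the lower Vav1R63W library. The log2 fold change was -0.54 ± 0.30 (SE, 2 libraries a group), with an adjusted p of 1.00 in edgeR, and it moved to -0.26 when replicate 3 of that group was left out and to -0.88 when its replicate 2 was. Cyc1, cytochrome c1, which hands the electron to cytochrome c, was at 238 and 341 CPM against 207 and 255 CPM, with the groups overlapping. Uqcrc2, the other core protein, ranged from 203 to 313 CPM with both extremes in Vav1R63W. Cycs, the soluble carrier itself, was at 220 and 192 CPM against 186 and 230 CPM, again with overlap.

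Of the 9 complex III members, 5 had a positive and 4 a negative log2 fold change. Their summed level was 2952 and 3217 CPM in Vav1R63W and 2933 and 2925 CPM in the other group, a ratio of means of 0.950. The groups did not overlap on library totals, but they did on TMM-scaled totals, where the ratio was 0.966, and on library totals when Cyc1, Uqcrc2, Uqcrfs1 or Uqcrq was left out of the sum.

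Complex IV has 18 structural members in the rule, many of them isoforms of one subunit. Nearly all reads of each such pair or trio named here came from a single isoform. Cox7a2l, related to subunit 7a and at 283 to 408 CPM, is not counted in these pairs and is described below. Cox4i1, the ubiquitous subunit 4, was at 793 and 879 CPM in Vav1R63W and 861 and 912 CPM in the pair labelled Themis1-deleted, whereas Cox4i2, the isoform of lung and hypoxic tissue, had 0 reads in every library. Cox6a1 was at 585 and 653 CPM against 587 and 595 CPM, and its heart and muscle counterpart Cox6a2 had 0 reads. Cox7a2 was at 294 and 262 CPM against 282 and 379 CPM with Cox7a1, its muscle form, at 0 reads, and Cox8a was at 495 and 491 CPM against 477 and 542 CPM with the muscle form Cox8b and the testis form Cox8c at 0.

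Cox7b, the only member on the X chromosome, stood at 285 and 305 CPM in Vav1R63W and 327 and 353 CPM in the other group, both of the latter higher, with its testis form Cox7b2 at 0. Cox6b1 was at 570 and 661 CPM against 524 and 723 CPM, the group labelled Themis1-deleted holding both the lowest and the highest library. Its testis form Cox6b2 had 1, 0, 35 and 0 reads in the 4 libraries, so nearly all its reads came from the library labelled Themis1-deleted, replicate 2. For the 6 isoforms with no read, a count of 0 allows up to 3 reads, which is 0.188 to 0.215 CPM depending on the library, for counting error only. The muscle genes Ckm, Myh6 and Myh7 were also without a read.

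Cox5b (GRCm38 chr1:36691449-36693681, plus strand), a subunit on the matrix side, had the smallest p of all members in edgeR. Its level was 192 and 198 CPM in Vav1R63W and 241 and 273 CPM in the pair labelled Themis1-deleted. Both of the latter exceeded both of the former, and the gap between the groups was wider than the spread inside either. The log2 fold change was 0.42 ± 0.19 (SE, 2 libraries a group), the unadjusted p 0.0840 and the adjusted p 1.00 in edgeR. In the authors' deposited table its adjusted p is 0.352. Cox7a2l, a gene related to subunit 7a, had the opposite sign, at 326 and 408 CPM against 309 and 283 CPM. Its log2 fold change was -0.29 ± 0.19, and -0.09 without Vav1R63W replicate 3, the highest library.

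Among the 11 tested structural members of complex IV, 9 had a positive and 2 a negative log2 fold change, with a median of 0.11. The summed level was 4416 and 4764 CPM in Vav1R63W and 4449 and 5119 CPM in the pair labelled Themis1-deleted, which overlap, with a ratio of means of 1.04.

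The complex IV assembly factors, which insert haem A and copper and build the mitochondrially encoded core, had far fewer reads. Overlap with other genes limits the counts of Cox11, Cox16, Cox17 and Cox20, as described below, and its part in this difference was not tested. Cox14, a partner of newly made subunit 1, was the only one above 100 CPM in each library, at 165 and 251 CPM against 178 and 232 CPM. Cox19, a copper-related factor, was at 62.7 and 42.3 CPM against 61.0 and 49.6 CPM. Cox10, which adds the farnesyl chain to haem, was at 33.7 and 43.7 CPM against 43.6 and 31.4 CPM. All of these overlapped between groups.

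Cox15 (GRCm38 chr19:43733254-43753000), the haem A synthase, varied most of the tested assembly factors. It had 668 and 416 reads in Vav1R63W, 2 in the library labelled Themis1-deleted, replicate 2, and 172 in replicate 3, which is 47.7 and 28.9 CPM against 0.125 and 12.3 CPM. Both of the latter were lower, and as a ratio they differed from each other by much more than the Vav1R63W libraries did. Its log2 fold change of -2.57 ± 2.05 (SE, 2 libraries a group) was the only one among tested members beyond 1 in size, against 28.5% of all tested genes, and its adjusted p in edgeR was 1.00. It was -1.59 when replicate 2 labelled Themis1-deleted was left out and -8.16 when replicate 3 was. Most members are at a high level, and of tested genes at a mean of 100 CPM or more only 2.14% were beyond 1 in size. Of the 37 members at that level, 0 were. Over the 9 assembly factors the summed level was 399 and 409 CPM in Vav1R63W and 354 and 378 CPM in the other group. The ratio of means was 0.905, and the groups did not overlap on library totals or on TMM-scaled totals. Without Cox15 the sums were 351 and 381 CPM against 354 and 365 CPM, which overlap, with a ratio of 0.982, and they also overlapped without Cox14 or without Cox18.

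**Figure D2:**
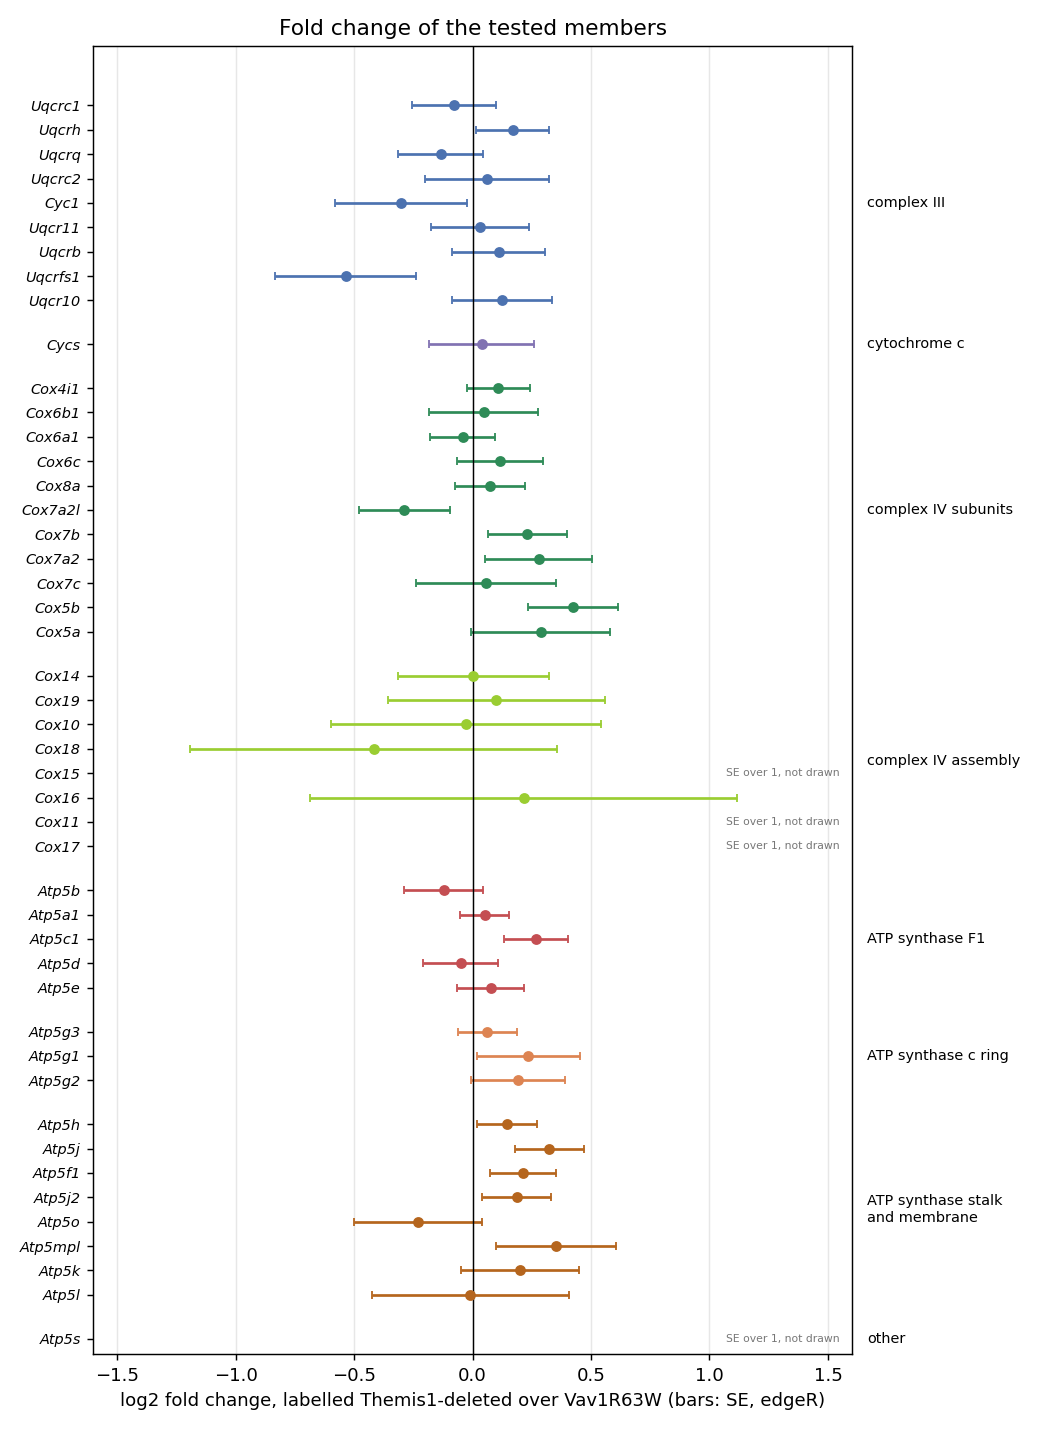
Log2 fold change of each tested member, the libraries labelled Themis1-deleted over Vav1R63W (horizontal axis), with bars of 1 SE from edgeR; 4 members with an SE over 1 are named but not drawn. Most structural members lie within 0.5 of 0, and Cox5b at 0.42 and Uqcrfs1 at -0.54 are the farthest of those with an SE under 0.5.

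ATP synthase held the most abundant members by reads. In the F1 head, Atp5b, the beta subunit with the catalytic sites, was at 1881 and 2366 CPM in Vav1R63W and 2091 and 1757 CPM in the pair labelled Themis1-deleted. Atp5a1, the alpha subunit, was at 1457 and 1524 CPM against 1601 and 1437 CPM. Both overlapped, and in both the library labelled Themis1-deleted, replicate 3, was the lowest of the 4. Atp5c1, the gamma subunit that turns inside the head, was at 696 and 798 CPM against 900 and 871 CPM, with the groups apart. Its log2 fold change was 0.27 ± 0.14 (SE, 2 libraries a group), and it was 0.15 without Vav1R63W replicate 2. The summed F1 level was 5026 and 5646 CPM against 5491 and 5079 CPM, a ratio of 0.990.

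The subunit c genes were all well expressed. Atp5g3 was at 544 and 568 CPM in Vav1R63W and at 573 and 568 CPM in the other group, close to constant. Atp5g1 was at 357 and 450 CPM against 419 and 514 CPM. Atp5g2 was the lowest, at 210 and 185 CPM against 207 and 235 CPM. Per kilobase of exon (all exons of the gene joined), the mean levels were 258 for Atp5g3, 125 for Atp5g2 and 88.6 CPM per kb for Atp5g1. Atp5g2 shared 38.3% of its 50-base windows with other annotated transcripts, Gm10175 sharing the most, and whether reads were lost to several mapping positions was not tested. The 3 log2 fold changes were positive, and the sum was 1111 and 1202 CPM against 1200 and 1317 CPM, with overlap.

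In the peripheral stalk and the membrane part, 6 of 8 members had a positive and 2 a negative log2 fold change, with a median of 0.19. Atp5j (GRCm38 chr16:84827866-84835625, minus strand), coupling factor 6 of the stalk, whose stretch with the ETS motif is printed above, was at 518 and 488 CPM in Vav1R63W and at 577 and 658 CPM in the pair labelled Themis1-deleted. Its log2 fold change was 0.32 ± 0.15 (SE, 2 libraries a group) with an adjusted p of 1.00 in edgeR, and 0.20 when replicate 3 labelled Themis1-deleted was left out. Atp5f1, subunit b, was at 464 and 476 CPM against 513 and 558 CPM. Atp5h, subunit d, was at 618 and 658 CPM against 689 and 699 CPM. In each of these 3 stalk genes both libraries labelled Themis1-deleted lay above both Vav1R63W libraries.

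Atp5mpl, the 6.8 kDa proteolipid, was at 163 and 153 CPM in Vav1R63W and 169 and 227 CPM in the other group, the distance resting on replicate 3. Atp5j2, subunit f, was at 370 and 334 CPM against 412 and 375 CPM. Atp5o, the OSCP subunit that joins the stalk to the head, had the opposite sign, at 367 and 295 CPM against 339 and 217 CPM, with overlap. The summed level of the 8 was 2684 and 2582 CPM in Vav1R63W and 2913 and 2911 CPM in the pair labelled Themis1-deleted. The ratio of means was 1.11, or 1.13 on TMM-scaled totals, and the groups overlapped on neither. Each of the 2 libraries labelled Themis1-deleted, taken alone, gave 1.11 over the Vav1R63W mean. The groups stayed apart when any 1 of the 8 genes was left out of the sum. Both alternatives were added after seeing the data. For comparison, 33.8% of single tested genes had no overlap on library totals, in either direction. The complex III and assembly factor sums also had none, both lower. The 16 genes of F1, c ring, stalk and membrane part summed to 8821 and 9430 CPM against 9604 and 9306 CPM. That sum overlapped on library totals (ratio 1.04) but not on TMM-scaled totals (1.05). Atp5s, a coupling factor B-like protein outside the enzyme's core, had 207 and 115 reads against 324 and 0.

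**Figure D3:**
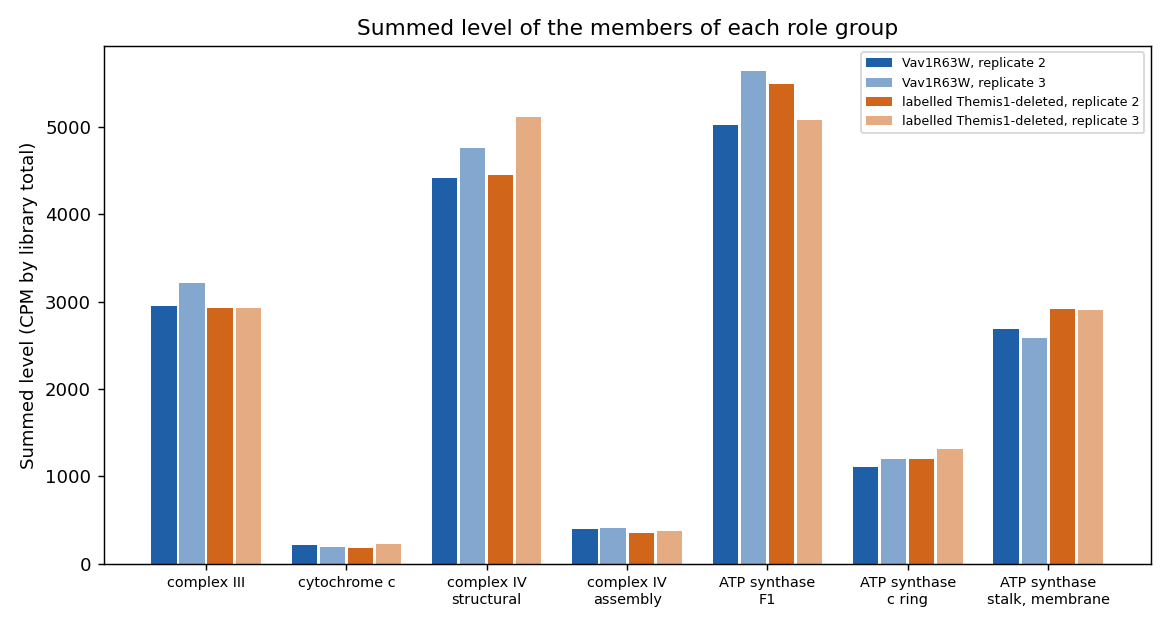
Summed level of the members of each role group (vertical axis, CPM by library total) in each library, 1 bar a library. The stalk and membrane group stands at 2913 and 2911 CPM in the pair labelled Themis1-deleted against 2684 and 2582 CPM, while the F1 and complex IV structural groups overlap. The complex III and complex IV assembly groups lie lower in that pair without overlap.

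Across all 46 tested members, 32 (69.6%) had a positive log2 fold change, with a median of 0.07, against 50.1% and a median of 0.00 for all tested genes. Among the 2005 tested genes at a mean of 100 CPM or more, 53.8% were positive with a median of 0.03. Of the members at that level, 28 of 37 were positive with a median of 0.08. For a single gene, the median SD of log2(CPM + 1) within a group was 0.144 among members. That spread was 0.555 for all tested genes and 0.220 for those at 100 CPM or more.

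The median size of the log2 fold change, regardless of sign, was 0.15 for members, 0.52 for all tested genes and 0.20 for tested genes at 100 CPM or more. Groups without overlap were found for 10 members with both libraries labelled Themis1-deleted higher, against 15.1% of all tested genes, and for 4 with both lower, against 18.7%. The 10 were Atp5j, Cox5b, Atp5c1, Atp5f1, Cox7b, Atp5mpl, Atp5j2, Atp5h, Atp5g3 and Cox17, and the 4 were Uqcrfs1, Cox7a2l, Cox15 and Uqcrq. Cox17 had only 42 to 67 reads a library and has the overlap limit described below. With both directions together, 30.4% of the 46 members did not overlap on library totals, near the background of 33.8%. By direction, more members were higher than lower, unlike all tested genes. At a mean of 100 CPM or more, 9 of 37 members were higher and 3 lower, against 17.3% and 16.7% of tested genes. This imbalance was not tested. With TMM-scaled CPM the counts were 14 of 46 higher (background 15.9%) and 3 of 46 lower (background 17.9%). The added genes were Uqcrh, Cox5a, Atp5g2, Atp5k and Atp5e, while Atp5g3 and Uqcrq left the lists. Of the 17 tested ATP synthase members, 7 (41.2%) did not overlap on library totals, against 33.8% of all tested genes. None of the 7 was lower, and 5 of them were the stalk and membrane genes described above. The mitochondrial share of gene reads was also higher in both libraries labelled Themis1-deleted, at 0.840% and 0.960% in Vav1R63W and 1.01% and 1.11% in that pair, and its part in these counts was not tested.

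**Figure D4:**
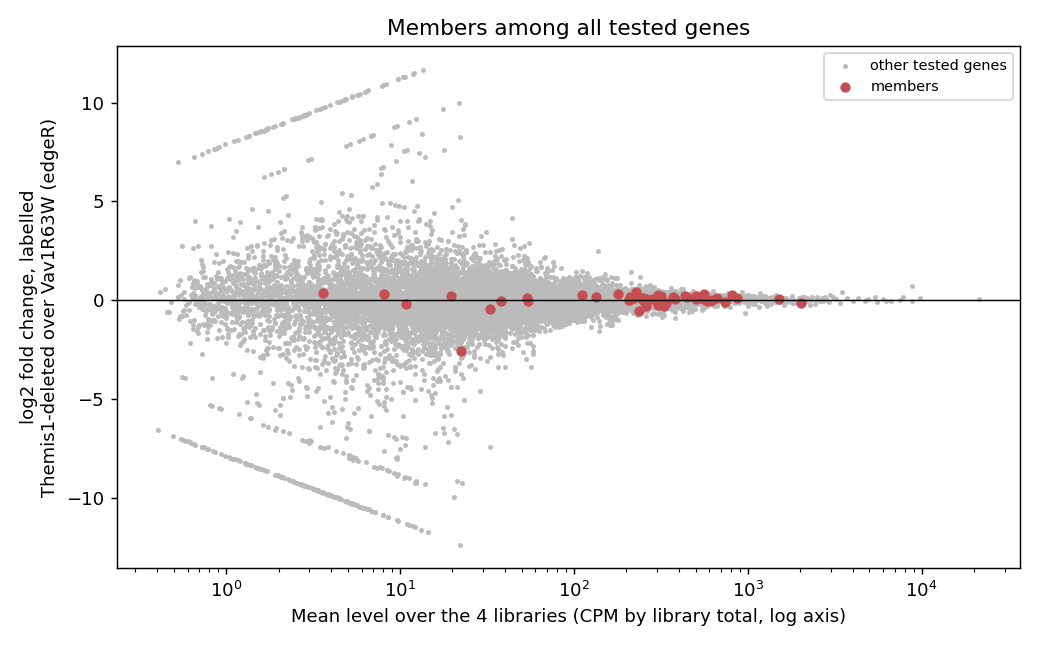
Mean level over the 4 libraries (horizontal axis, CPM, log scale) against the log2 fold change, the libraries labelled Themis1-deleted over Vav1R63W, for all 10216 tested genes in grey and the 46 members in red. Members cluster at high level near 0, and Cox15, at -2.57, is the only one beyond 1 in size.

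Compared per length, complex IV and F1 subunits stood highest. Per kilobase of joined exons the order began with Cox6b1 (875 CPM per kb), Cox6a1 (862), Cox8a (810), Cox4i1 (556), Atp5a1 (480), Atp5b (478) and Atp5h (455 CPM per kb). Cox6b1 and Cox6a1 do not differ beyond their spread over libraries, nor do Atp5a1 and Atp5b. The length chosen matters: per kilobase of the principal transcript, a choice added after seeing the data, Cox4i1 came first at 1126 CPM per kb, and Atp5e moved from 218 to 907 CPM per kb. The median level per kilobase of joined exons was 185 for complex III, 261 for tested complex IV structural members and 428 CPM per kb for F1. It was 8.91 CPM per kb for the tested assembly factors, some of whose counts are limited by overlap, as described below. The lowest tested structural member on that scale was Atp5l, at 8.44 CPM per kb, but per kilobase of the principal transcript it was at 99.9 CPM per kb, above Atp5g1 (92.3) and Cycs (66.3 CPM per kb).

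How reads were counted bears on some of these levels. The deposited counts ignore strand, and a read that falls on exons of 2 genes on opposite strands is then given to neither. For 38 of 48 members the unstranded count was at least 95% of the sum of the strand-specific columns, and for 4 it was under 50%. Cox20, a chaperone of complex IV subunit 2, kept 0.0254%, with 1 read in all, and 91.1% of its exon bases overlap Hnrnpu on the other strand. Its strand-specific columns summed to 747, 1136, 793 and 1254 reads, or 48.7 and 71.7 CPM against 45.6 and 81.6 CPM. Those reads cannot be told apart from reads of Hnrnpu, since the kit named in the labels does not mark strand. A read on exons of 2 genes on the same strand is given to neither in any column, so the share above does not show such a loss. Cox16 shares 56.8% of its exon bases with Gm20498 and Cox17 4.45% with Gm21987, both on the same strand. Atp5o also overlaps a gene on its own strand. How many reads were lost there was not tested.

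For Cox5a, which overlaps Gm26631, the unstranded count was 32.5% of the summed strand columns. It was 35.6% for Cox11, which overlaps Tom1l1, and 40.7% for Atp5l, which overlaps Gm30934. By the unstranded count Cox5a was at 117 and 84.9 CPM against 129 and 113 CPM. By the summed strand columns it was at 319 and 274 CPM against 316 and 342 CPM. As with Cox20, these sums may hold reads of the overlapping gene, which cannot be told apart, so they are not levels of the member alone. The share lay between 80% and 95% for 6 members, Cox4i1, Uqcrc2, Uqcrb, Atp5o, Cox10 and Atp5j. Atp5j overlaps Gabpa. Shared sequence adds another limit. For 14 members over 10% of 50-base windows occur in another annotated gene. In 5 of them, Cox11, Cox16, Cox20, Uqcrc2 and Atp5o, the gene that shares the most overlaps the same locus. In the other 9 it lies elsewhere, among them Cycs, with 26.1% shared with 79 genes, and Cox7c, with 22.1%. The 9 annotated pseudogenes with member-like symbols had 0 to 43 reads each over the 4 libraries.

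**Figure D5:**
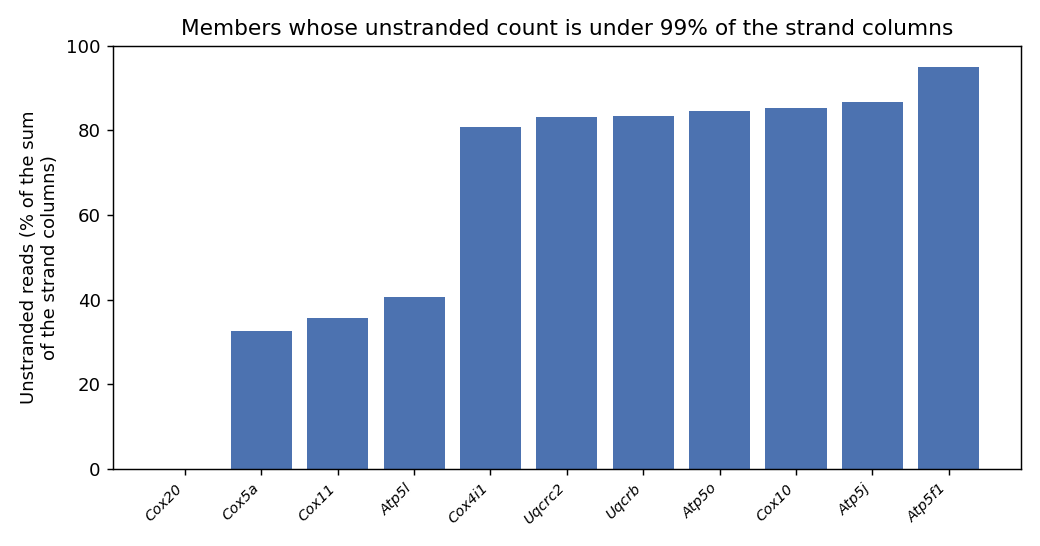
Unstranded reads as a percent of the sum of the strand-specific columns (vertical axis), over the 4 libraries, for each member under 99%. Cox20 is near 0, Cox5a, Cox11 and Atp5l lie between 32.5% and 40.7%, and the others at 80.9% or more.

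Of 6 partners encoded in mitochondrial DNA, 4 were tested and 2 were at a high level. mt-Cytb, the core of complex III, was at 927 and 982 CPM in Vav1R63W and 1048 and 994 CPM in the pair labelled Themis1-deleted. mt-Co1, the core of complex IV, was at 574 and 868 CPM against 914 and 882 CPM, Vav1R63W replicate 2 standing apart. Groups did not overlap in either gene, nor in mt-Co3, at 3.14 and 2.15 CPM against 8.65 and 4.30 CPM. So 3 of the 4 tested mitochondrial partners lay higher in both libraries labelled Themis1-deleted, as did 15.1% of all tested genes. In edgeR 0 of the 4 passed. mt-Co2, mt-Co3, mt-Atp6 and mt-Atp8 had at most 8.65 CPM in any library, far below mt-Co1 on the same DNA.

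Of 30 further genes for assembly and stability of these complexes, 28 were tested and 0 passed in either direction in edgeR, with 11 positive and 17 negative log2 fold changes and a median of -0.14. Groups did not overlap for 3 with higher values in both libraries labelled Themis1-deleted (15.1% of all tested genes) and for 7 with lower values (18.7% of all). Ndufa4, now counted as a complex IV subunit, was at 353 and 367 CPM against 423 and 532 CPM, with a log2 fold change of 0.44 ± 0.19 (SE, 2 libraries a group). Tmem70, which assists c ring assembly, was at 45.5 and 35.6 CPM against 62.7 and 83.2 CPM. Surf1, a complex IV assembly factor, was at 102 and 86.4 CPM against 56.0 and 73.6 CPM, and Uqcc3, of complex III, at 107 and 130 CPM against 95.8 and 72.8 CPM. Usmg5, the DAPIT subunit of ATP synthase whose symbol falls outside the rule, was at 197 and 171 CPM against 237 and 252 CPM, with a log2 fold change of 0.44 ± 0.19, and did not pass either.

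Regulators of respiratory gene transcription were tested in 17 of 18 cases, 0 passed in edgeR, and 10 had a positive and 7 a negative log2 fold change. There was no overlap for 3 with higher values (15.1% of all tested genes) and 6 with lower values (18.7% of all). Nrf1 was at 114 and 185 CPM in Vav1R63W and 40.0 and 103 CPM in the pair labelled Themis1-deleted. Gabpa was at 46.3 and 10.9 CPM against 36.7 and 76.8 CPM, and its count shares the strand limit of Atp5j. Tfam, the packaging and transcription factor of mitochondrial DNA, was at 151 and 104 CPM against 101 and 76.6 CPM. Ppargc1a had no read. Its relative Ppargc1b, a coactivator of NRF1 and ERR factors, had 88 and 104 reads in Vav1R63W and 0 in both other libraries. Taking 3 reads a library as the floor gives at least 33.5-fold lower, for counting error only. Variation between libraries is not in that bound: Sp1, for one, had 626 and 7 reads inside Vav1R63W. The log2 fold change of Ppargc1b was -9.61 ± 2.39 (SE, 2 libraries a group). Its unadjusted p was 0.0221 and its adjusted p 0.900 in edgeR. Among all tested genes this p is one of 509 under 0.05.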

How the data were processed

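Libraries of total RNA were made with a TruSeq RNA kit, per the labels' protocols. Trim Galore and STAR did the trimming and alignment, per the submitters' processing notes, with versions not given in the sources used here. For the genome, Ensembl release 90 stands in the design text and mm9 in the processing notes, which differ. The authors deposited raw counts per gene, without strand and by strand, and a table of their DESeq2 comparison with log2 fold changes and p-values, per the file headers. That deposited table also holds size-factor-normalized values rounded to whole numbers (a score here) and their mean over libraries (a signal), made by the authors with DESeq2 and not used in a test. The unstranded count column was used; the summary lines (unmapped, multimapping, no feature, ambiguous), 21.1% to 23.1% of reads, were left out.

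Gene IDs gave a symbol for 52403 of 52636. Coordinates are of GENCODE M21 (GRCm38). Counts were fitted with edgeR 4.0.16 (TMM, filterByExpr with a minimum count of 10 and a minimum total of 15, robust quasi-likelihood F test, two-sided, no block) over all genes, with Benjamini-Hochberg adjustment at 0.05. The SE is the log2 fold change over the root of the F statistic. CPM uses library totals. Alternatives were DESeq2 1.42.0, limma-voom (limma 3.58.1), other scalings and filters, summed strand columns, a replicate block and leaving out each library. Fits were tried on simulated data with a single dispersion for all genes. That checks the fitting steps only and cannot show what the fits detect at the spread of these libraries. The 2 groups of 2 allow no useful permutation test. Values per library are given for the 3 most abundant members of each role group, the 8 members with the smallest p and the isoform sets; further names were chosen after their values were seen. Members and lists were chosen with earlier results of these data known. One marker gene of another cell type is not reported here.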

Additional observations from a re-analysis of the deposited data

How the results depend on the processing

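The number of members called stayed at 0 under every alternative run, and all genes called stayed at 0 except with DESeq2, which called 206. The median log2 fold change of tested members, 0.07, was 0.048 with library totals only and ran from 0.041 to 0.13 when 1 library was left out, the lowest when replicate 3 of the libraries labelled Themis1-deleted was left out and the highest when their replicate 2 was. In that last fit the median of all genes was itself -0.20. Deviations of libraries with the same replicate number were hardly correlated between groups (0.018 over all genes and 0.084 over members). Each group gives only 1 such deviation, so this cannot show whether the samples were paired. With the replicate block 0 genes were called and the median of members was 0.08. Apart from leaving out libraries, 4 of 368 values of single members reversed: Cox10 (0.017) and Cox11 (-0.064) on summed strand columns, Cox14 (-0.021) with library totals only and Cox7c (-0.018) with limma-voom. Leaving out 1 library reversed 36 of 184 values, in 25 members, and 21 members kept their sign. The lowest and highest log2 fold changes of the 25 were as follows. In complex III they were -0.56 and 0.0052 for Cyc1, -0.070 and 0.29 for Uqcr10, -0.13 and 0.20 for Uqcr11, -0.045 and 0.28 for Uqcrb, -0.27 and 0.14 for Uqcrc1, -0.20 and 0.38 for Uqcrc2 and -0.30 and 0.0066 for Uqcrq, and for Cycs -0.16 and 0.20. In complex IV they were -0.15 and 0.063 for Cox6a1, -0.24 and 0.27 for Cox6b1, -0.062 and 0.26 for Cox6c, -0.36 and 0.37 for Cox7c and -0.053 and 0.18 for Cox8a. For its assembly factors they were -0.26 and 0.20 for Cox10, -0.40 and 1.83 for Cox11, -0.29 and 0.36 for Cox14, -0.032 and 0.42 for Cox16, -0.90 and 0.31 for Cox18 and -0.14 and 0.38 for Cox19. In ATP synthase they were -0.0090 and 0.11 for Atp5a1, -0.30 and 0.078 for Atp5b, -0.21 and 0.087 for Atp5d, -0.10 and 0.080 for Atp5l, -0.56 and 0.033 for Atp5o and -10.31 and 0.84 for Atp5s. In such fits the lone library is assumed to vary like the other group. For these reversals the cause was not tested. Depth limits the 6 isoforms with no read, for which up to 3 reads a library cannot be told from 0.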
